A study of Drosophila melanogaster with 4 samples.

Results

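The NK homeobox cluster of Drosophila melanogaster is a row of homeobox genes on the right arm of chromosome 3 (3R). Its interval was taken from 17190000 to 17460000 on 3R of FlyBase release 5, a length of 270 kb. A Cmi peak was counted as a member when its midpoint lay in this interval, which gave 17 of the 3110 peaks of the experiment and 17 of the 685 peaks on 3R. The members were therefore chosen by the called positions of the same list, after results of these data were known, so the values below are descriptions without a test. Chromatin from embryos labelled as 0 to 8 h was enriched with a rabbit polyclonal antibody raised against Cmi in 2 libraries. Beside them were 2 libraries of input DNA. All 4 libraries carry the labels strain Exd-GFP-13T and genotype w; PBac{y[+]-attP-3B}VK00033, with a transgene of the extradenticle (exd) gene that ends in GFP instead of its stop codon. The labels give the sex as unknown. The extraction text in the same labels names another stock and an older collection window, which starts at 8 h. The stage and strain labels were followed here, and the conflict was not resolved. The 1 deposited list has no value per library, so the spread between the 2 immunoprecipitated libraries and the depth of each library are unknown.

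Cmi, also known as Lpt, is part of the Trithorax-related complex, an assembly that marks the histones of enhancers by methylation. The genes of the NK cluster encode homeodomain transcription factors, most of which are known for assigning identities within the mesoderm of the embryo. In the release 6 gene table, which was used for names and order only, all 6 lie on 3R in the order tin (CG7895), bap (CG7902), lbl (CG6570), lbe (CG6545), C15 (CG7937) and slou (CG6534). The gene tinman (tin) is required for the heart and the visceral mesoderm, and bagpipe (bap) acts after it in the visceral mesoderm. The ladybird genes lbl and lbe act in subsets of heart and muscle precursors, slouch (slou) in the founder cells of certain body wall muscles, and C15 in the dorsal ectoderm and the distal leg. Between tin and slou the table lists 6 further protein-coding genes, Ugt49B2, CG7907, CheB93a, CheB93b, Fancm and sp3. The next protein-coding genes on the tin side are mod(mdg4), aus and CG17298, and next on the slou side CG15498, InR, which encodes the insulin receptor, and E2f1, a transcription factor of entry into S phase. Gene positions of release 5 were not used here. The place of the cluster within the interval was therefore taken as given, and none of the 17 peaks could be assigned to tin, bap, lbl, lbe, C15, slou or a gene beside them. Whether the right-hand end of the interval, which holds 16 of the 17 peaks, lies within the cluster or beyond slou, at CG15498, InR or E2f1, was not determined. The count, the rank on 3R and the groups given below rest on that end, so they describe the interval and are not shown to describe the 6 genes.

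Cmi peaks stood at the ends of the interval, with a long stretch between them in which none was called. A single peak of 378 bp lay near the left end, at 17202113 to 17202490, with a score of 13.56. The next peak began at 17405769, after 203.3 kb without a peak, or 75.3% of the interval. The other 16 peaks followed within 50.8 kb, up to 17456587. In windows of 10 kb, 7 of 27 held a peak and 20 held none. In windows of 30 kb the counts from left to right were 1 peak, then 6 windows without a peak, then 5 peaks and 11 peaks. Most of the interval named for the NK cluster thus carried no call. Because the depth is unknown, the empty stretch is not shown to lack Cmi.

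**Figure D1:**
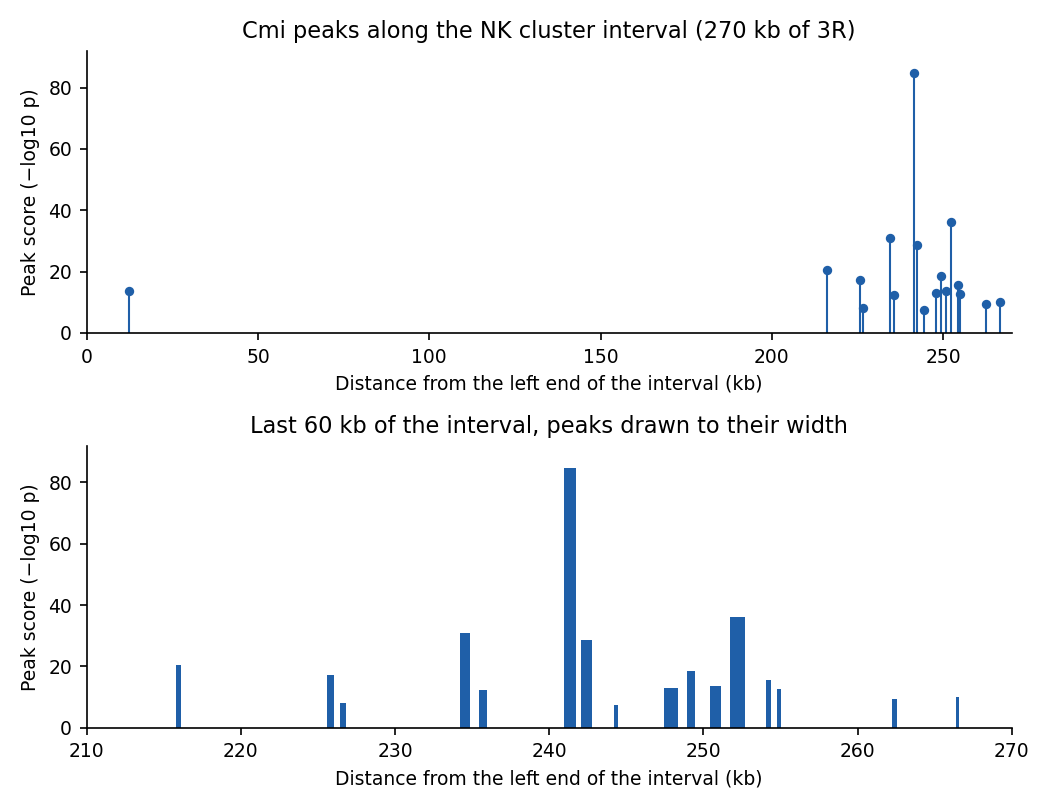
Score of each of the 17 Cmi peaks (vertical axis, −log10 p) against its distance from the left end of the interval in kb, for the whole interval (top, lines and points at peak midpoints) and for its last 60 kb (bottom, bars as wide as the peaks). A single peak stands near the left end, and the other 16 stand in the last 60 kb, with the highest score, 84.65, among them.

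The long distance without a call was in the upper tail of 3R, but not at its extreme. Of the 684 distances between neighbouring peaks on 3R, 33 were longer than these 203.3 kb, and the longest was 689.2 kb. The median distance was 6.34 kb, and 85 distances exceeded 100 kb. Over the 6 major arms, 126 of 2673 distances were longer. The other distances between neighbouring members ran from 322 to 9437 bases, with a median of 1395 bases.

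**Figure D2:**
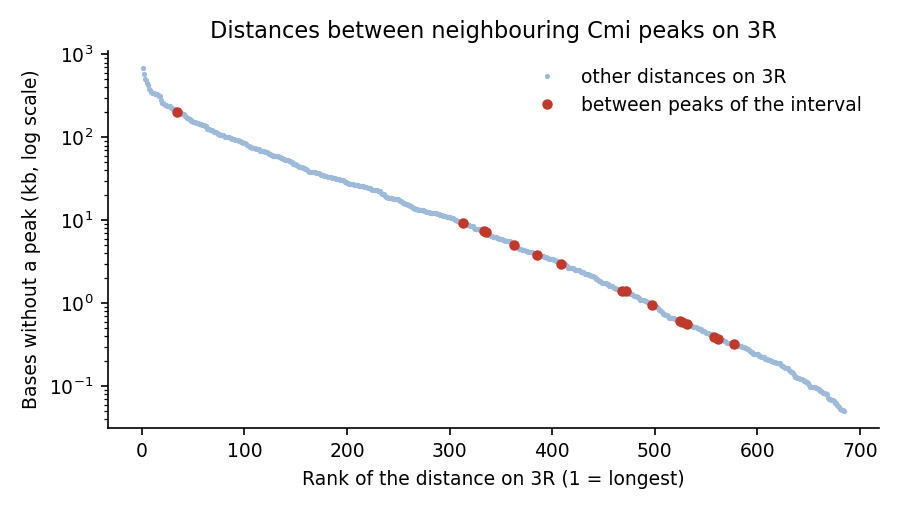
Length of every distance between neighbouring Cmi peaks on 3R (kb, log scale), ordered from the longest. Red points are the distances between members; 1 of them, at 203.3 kb, stands at rank 34 of 684, and the others lie below 10 kb.

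Taken as a whole, the interval held more peaks than most places of 3R. It was compared with stretches of the same length, slid by 10 kb over the span of 3R that holds peaks, leaving out those that overlap the interval. The 2696 stretches held a median of 6 peaks (quartiles 2 and 9) and at most 30, against 17 in the interval. Among them, 176 stretches, or 6.53%, held as many peaks or more, and 238 held none. Members covered 3.22% of the interval, while the median stretch was covered to 1.17% (quartiles 0.45% and 1.99%), and 307 stretches, or 11.4%, were covered to the same share or a higher one. The stretches overlap one another, so these shares describe a rank on the arm and are not probabilities.

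The rank of the interval came from its right-hand side. Its left part of 135 kb, up to its midpoint, held 1 peak and was covered to 0.28%, below the median of 2 peaks in 3R stretches of that length, and 73.6% of those stretches held as many or more. Its right part, of the same length, held 16 peaks and was covered to 6.17%, and 1.62% of the stretches held as many or more. Without its last 60 kb the interval kept 1 peak in 210 kb, where the median stretch held 4, and 85.5% of stretches held as many or more. This division was chosen after the positions had been seen. The left and the right part therefore fell on opposite sides of the median of the arm.

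**Figure D3:**
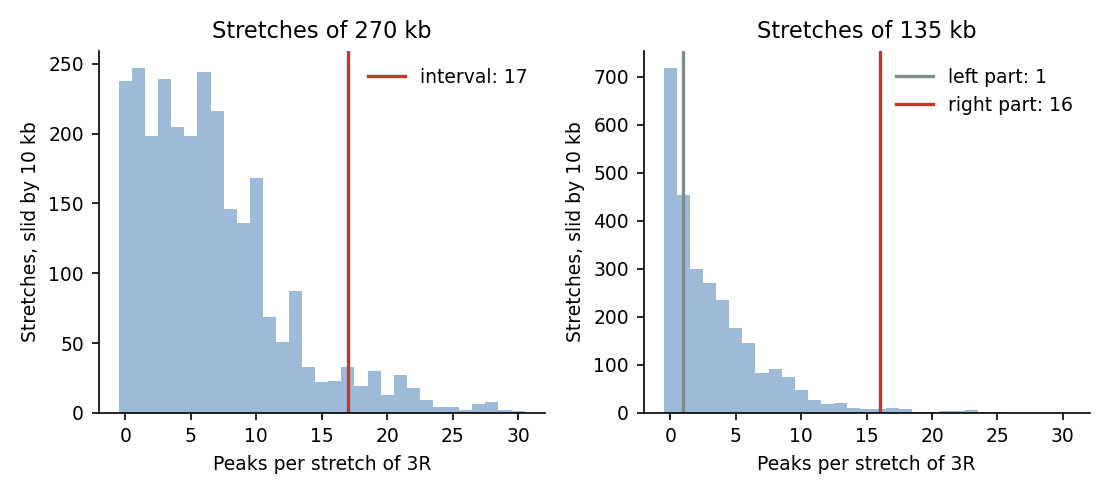
Number of Cmi peaks in stretches of 3R slid by 10 kb (horizontal axis), as counts of stretches (vertical axis), for stretches of 270 kb (left) and 135 kb (right). Vertical lines mark the interval with 17 peaks, its left part with 1 and its right part with 16; the left part stands below the median of 2 and the right part in the upper tail.

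The 16 peaks of the right-hand block lay in small groups around 1 group of 9. Chained at 5 kb from midpoint to midpoint, they formed 1 single peak, 3 pairs and the group of 9, and 15 of the 17 members had another peak within 5 kb, against 66.9% of the other 668 peaks of 3R. Among peaks with a score above the median of the list the shares were 4 of 7 members and 47.5% of the others on 3R, and after joining peaks within 1 kb they were 6 of 10 regions and 36.5%. The single peak at 17405769 to 17406141 (score 20.57) opened the block. The first pair, at 17415579 to 17416035 and 17416425 to 17416811, had scores of 17.13 and 8.13. The second pair joined the peak at 17424212 to 17424883, with the third highest score (30.98), to a weaker one at 17425444 to 17425954 (12.30). The group of 9 ran from 17430984 to 17445035, and its peaks covered 38.1% of that stretch. The last pair, at 17452208 to 17452537 and 17456352 to 17456587, had scores of 9.56 and 9.94. Both the opening peak and the last pair were thus weaker than the strongest peaks between them.

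Within the group of 9 the scores ran from 7.53 to 84.65. Its first peak, at 17430984 to 17431766, had the highest score of the interval (84.65) and ranked 11 of the 685 peaks of 3R. The second, at 17432089 to 17432786, began 322 bases past its end and had a score of 28.70. A narrow peak of 247 bp at 17434208 to 17434454 had the lowest score of the interval, 7.53. Strong and weak calls were thus direct neighbours here. After it came the peaks at 17437474 to 17438339 (score 13.11), 17438935 to 17439486 (18.57) and 17440444 to 17441135 (13.73). The peak at 17441746 to 17442689 had the second highest score (36.09) and, at 944 bp, was the widest of the interval. The group closed with the peaks at 17444085 to 17444410 (15.75) and 17444784 to 17445035 (12.71). The 2 strongest peaks of the group were thus separated by 5 weaker ones.

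As listed, the members were of ordinary width for 3R, with no wide peak among them. Their median width was 457 bp (quartiles 330 and 692 bp, range 236 to 944 bp), beside 472 bp for the other peaks of 3R (quartiles 295 and 795 bp, range 201 to 4054 bp). No member was wider than 1 kb, while 16.5% of the other peaks of 3R were. The 5 widest members measured 944, 866, 783, 698 and 692 bp, and all 5 belonged to the group of 9. The lone peak at the left end, with 378 bp, was narrower than the median of the members. These widths depend on how the caller split neighbouring calls. The peaks from 17437474 to 17442689 lay 595, 957 and 610 bases apart, so joining within 1 kb makes them 1 region wider than 1 kb. Widths after joining were not compared with the arm.

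The scores were also close to those of the arm. The score is the authors' deposited value, and its spacing matches −log10 of a Poisson p-value, unadjusted for multiple tests. The median was 13.73 among the members (quartiles 12.30 and 20.57) and 14.39 among the other peaks of 3R (quartiles 10.32 and 23.85). Of the 17 members, 7 had a score above the median of the whole list (15.75), as had 44.2% of the other peaks of 3R. Above the upper quartile of the list (28.44) were 4 members, beside 18.6% of the others on 3R. Neither share of members was far from that of the arm, so the scores of the members were usual for 3R.

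**Figure D4:**
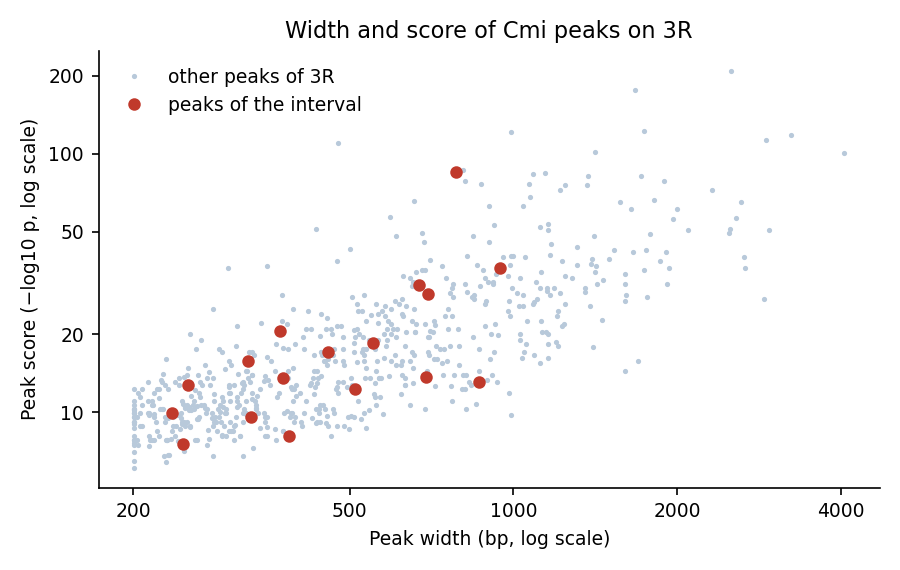
Score (−log10 p, log scale) against width (bp, log scale) for the 17 members (red) and the other 668 peaks of 3R (grey). The members lie within the cloud of the arm, below 1 kb in width, with 1 member at a score of 84.65.

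A score can be read as a read height where it falls on the series of values that whole reads give against 1 background for the genome. Within a tolerance of 0.0061 this held for 7 of the 17 members, beside 69.6% of the other peaks of 3R. With a tolerance of 0.015 the values were 8 members and 73.7% of the others. These 7 members had inferred heights of 2.31 to 2.89 times the background. None of the 7 scored above 17.13. Every member with a higher score was off the series, so the range leaves out the strongest calls. The lone left-hand peak was among the 7 with 2.63 times, as were both peaks of the last pair. In the group of 9, 2 peaks were on the series, and its strongest peak was not. Which background the caller used for the other members is not given in the sources used here.

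The left limit of the interval fell between scattered peaks, and the right limit cut through a run of peaks. Just inside the left limit was the peak of score 13.56, and just outside it, at 17174799 to 17175113, was a peak of score 8.11. Just inside the right limit was the peak of score 9.94, and a further group began outside it with the peak at 17464318 to 17464617 (15.75), whose midpoint lay 4.47 kb past the limit. That group also held a peak of 2503 bp at 17465931 to 17468433 with a score of 51.18, wider than any member. Chained at 10 kb, the 16 peaks of the block and 4 peaks outside formed 1 run of 20 peaks from 17405769 to 17470377. The dense calls thus passed beyond the interval on the side that faces away from its empty stretch. No run on 3R held more peaks at this distance, and 1 other held as many. That rank depends on the chaining distance. The opening peak joined the run across 9.85 kb, close to the cut of 10 kb. Chained at 5 kb, groups of 11 and 12 peaks elsewhere on 3R were larger than the group of 9.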

How the data were processed

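The authors deposited 1 peak list for the series. Per the file headers it is placed on FlyBase release 5 with MACS as the caller. BWA, MACS2, build BDGP5 and CASAVA (1.7.0.2, 1.7.0.3) are listed in the submitters' processing notes. How thresholds were set and whether replicates were pooled is not given in the sources used here. The authors deposited 1 score per peak without a stated unit, made by MACS per the file headers and read here as −log10 of a p-value. A Poisson background was searched for that matched the most of the 84 score values shared by 5 or more peaks. The best value, 31.1 reads, matched 77 of them within 0.0061. This match is therefore the outcome of the fit and not a separate check of it. The wider tolerance was 0.015. Coordinates are 1-based.

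Peaks were assigned by midpoint. Stretches were slid from the first to the last peak of an arm, the covered share is the summed width of peaks over the stretch length, and the major arms are X, 2L, 2R, 3L, 3R and 4. Python 3.11.15 with numpy 2.4.6, pandas 2.3.3 and scipy 1.17.1 was used. Counting, chaining and the score fit were tested on simulated data. Peaks named are the 10 of highest score, the 5 widest, and the first and last of the interval and of each group of 5 or more; the remaining members and peaks outside the interval were named in addition, after their values were seen. The planned lists of other NK and mesoderm genes and the protein comparison were not run. The interval, the member genes and the choices were set with earlier results of these data known. No p-value was computed. Sequences of the peaks and gene assignment were not analysed here, because no genome of release 5 was used.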

Additional observations from a re-analysis of the deposited data

How the results depend on the processing

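Of 49 alternatives, 31 left a value within its limits: 1.5 times for counts, 1 SD for medians, and 95% Wilson intervals for shares, with 101 stretches without overlap as n for shares of stretches. The last 60 kb, the interval without them, the keeping of overlapping stretches and the alternatives for the empty stretch were chosen after seeing the data. The cause of the shifts was not tested, except that a stricter list or joining leaves fewer peaks by construction. The interval held 7 peaks with a score above the median of the list, 4 above the upper quartile, and 10 regions after joining within 1 kb. The share of stretches with fewer peaks than the interval was 93.5%, and became 98.2% against 2L, 26.4% for its left part up to the midpoint, 98.4% for the right part, 99.7% for the last 60 kb and 14.5% without them. The share of stretches with lower coverage was 88.6%, and became 93.4% after joining, 93.4% against 2L, 33.8% and 96.5% for the left and right part, 98.9% for the last 60 kb and 19.3% without them. Members with a neighbour within 5 kb made up 88.2%, 57.1% among peaks above the median score and 60.0% after joining. The 4 groups of several peaks became 1 with chaining at 10 kb and 2 among peaks above the median score. The empty stretch between peaks was 203.3 kb, also after joining within 1 kb. It was 215.8 kb among peaks above the median score and 234.2 kb above the upper quartile. These 2 lengths were counted from the left limit of the interval, because the lone left-hand peak was no longer in the list. A stricter list or joining cannot shorten the empty stretch. No paired analysis was possible because no value of a single library was at hand, and leaving out a replicate was not run for the same reason. Depth limits what an empty stretch can show.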

Other observations

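Of the 176 stretches of 270 kb on 3R with 17 to 30 peaks, 2 had an empty stretch as long as the 203.3 kb of the NK cluster interval or longer, and the median of the longest empty stretch was 100.0 kb (range 37.7 to 221.3 kb). Among the 33 stretches with exactly 17 peaks the median was 121.8 kb, and the same 2 stretches reached the length in the interval. Both overlap each other at 1 place, between 21810000 and 22090000. Empty stretches were measured up to the limits of a stretch, so a distance between peaks that crossed a limit was cut there. In both, the length was cut from a distance of 493268 bases, between 21868686 and 22361955. The 203.3 kb of the interval is a whole distance between peaks, so the lengths compared are not alike. The 176 stretches fall in 9 separate places, and the measure was chosen after the empty stretch had been seen, so these values are a description only.

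Chaining at 5 kb gave 373 groups and single peaks on 3R, of which 3 held 9 or more peaks. The cut of 9 is the size of the group in the interval, which is therefore listed by construction and is the smallest of the 3. Beside the group in the interval (median score 15.75, 38.1% covered), these were 11 peaks at 21843187 to 21868686 (median score 25.70, 36.8% covered) and 12 peaks at 27522922 to 27533236 (median score 10.32, 69.0% covered). The group in the interval had the highest top score of these 3, 84.65, beside 56.37 and 36.03.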
